A study of Homo sapiens with 12 samples.

Results

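The 30 min response to epidermal growth factor (EGF) was examined in wild-type (WT) HEK293 cells, a human embryonic kidney line. The comparison used 4 of the 12 libraries of the series, chosen by their labels alone: 2 libraries of WT cells given the solvent DMSO (WT DMSO, replicates 2 and 3) and 2 of WT cells given DMSO followed by EGF (WT DMSO+EGF, replicates 2 and 3). None of the 4 came from the knockout line. All cells were serum starved for 24 h, in medium with 0.1% serum per the labels, although the methods of the study name another serum content. DMSO was given at 0.025% by volume, 20 min before EGF, and EGF was then present for 30 min, so treatment lasted 50 min. The DMSO cells without EGF were labelled 50 min in one place and 20 min in another, so the time in solvent may have differed between the groups. Sources disagree on the unit of the EGF dose of 15, which is nM in some and µM in others, and it could not be settled. The other 8 libraries (cells with cordycepin, and AMPK knockout cells) served to estimate the spread, and the EGF effect in AMPK knockout (AMPK KO) cells is set beside that in WT cells at the end. Replicate 1 of each condition was discarded by the authors and was not analysed here. The replicates are of 1 cell line and the labels do not name separate cultures, so p-values measure the spread between these samples. That spread is pooled over all 12 libraries and is not that of the 4 compared libraries alone.

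EGF binds its receptor tyrosine kinase EGFR and switches on RAS and the kinases RAF, MEK and ERK. ERK phosphorylates ternary complex factors that sit with serum response factor (SRF) on the promoters of immediate early genes. These genes are transcribed within minutes from pre-existing factors. They encode transcription factors of the FOS, JUN and EGR families, secreted and signalling proteins, and phosphatases and adaptor proteins that later switch the cascade off.

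RNA was sequenced from stranded, ribosomal RNA-depleted libraries, and the level of each gene is given in RPKM (reads scaled by gene length and library size) as deposited. Depth differed between the libraries. WT DMSO replicate 3 held 4005376 recovered reads, against 16502817 in WT DMSO replicate 2, 25008506 in WT DMSO+EGF replicate 2 and 16646656 in WT DMSO+EGF replicate 3. Genes without any read numbered 1170 of 26058 in the shallow library and 21 to 99 in the other 3. Log2 values of the WT DMSO replicates correlated across genes at 0.918, below the 0.961 to 0.977 of the other groups. The pooled spread, and with it SE and p-values, may therefore be too small for this comparison. WT DMSO replicate 2 stood apart by GC content, as described below. Of 10 genes known to be expressed in HEK293 cells, 8 passed the filter on low values, with NEFM and PAX2 below it. Of 12 defining markers of blood, liver, muscle, endothelial and fibroblast cells, 3 passed the filter. These (COL1A1, CKM and CD14) had group means of 0.475 to 1.2 RPKM.

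A small set of transcription factor genes rose steeply with EGF. At an adjusted p under 0.05 (limma, Benjamini-Hochberg adjustment over the 22067 genes tested) 5 genes rose, which is 0.0227% of those tested, and 0 fell (0%). The 5 were EGR1, EGR3, FOS, FOSB and EGR2. All 5 encode DNA-binding proteins, of the EGR zinc finger family or of the FOS family, whose members pair with JUN proteins to form AP-1. In bulk RNA a strong response of some cells and a weaker response of all cells cannot be told apart.

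EGR1 (ENSG00000120738, GRCh38 chromosome 5, 138465479 to 138469303, plus strand, 2 exons) encodes a zinc finger transcription factor. Its level was 2.64 and 2.38 RPKM in the WT DMSO libraries and 229.7 and 207.3 RPKM in the WT DMSO+EGF libraries. The groups were far apart, and the replicates of each differed little. The log2 fold change, on the scale of log2(scaled RPKM + 0.5) used for all fold changes here, was 6.16 (SE 0.186, limma adjusted p 2.48e-06). The 2 replicate numbers gave 6.17 and 6.14. EGR3 (ENSG00000179388, chromosome 8, 22687659 to 22693480, minus strand, 3 exons), a relative of EGR1, had 0.245 and 0.395 RPKM without EGF and 7.29 and 8.77 RPKM with it. This is a low level next to that of EGR1, counted from 21 and 8 reads without EGF and from 930 and 726 reads with it. The log2 fold change of EGR3 was 3.35 (SE 0.172, limma adjusted p 0.000136). EGR2 (ENSG00000122877, chromosome 10, 62811996 to 62819167, minus strand, 4 exons) was almost silent in starved cells, with 0.0634 and 0.067 RPKM from 4 and 1 reads. With EGF it had 1.43 RPKM in both libraries, from 134 and 87 reads. Its log2 fold change was 1.75 (SE 0.187, limma adjusted p 0.0282), a value that the pseudocount of 0.5 holds down. On the recovered reads, analysed with voom, it was 4.19.

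FOS (ENSG00000170345, chromosome 14, 75278826 to 75282230, plus strand, 4 exons), the founding member of its family, had 0.903 and 0.624 RPKM without EGF and 12.2 and 11.8 RPKM with it. The log2 fold change was 3.29 (SE 0.209, limma adjusted p 0.000593). FOSB (ENSG00000125740, chromosome 19, 45467995 to 45475179, plus strand, 5 exons) had 0.55 and 0.895 RPKM without EGF and 3.97 and 4.57 RPKM with it, a log2 fold change of 1.95 (SE 0.203, limma adjusted p 0.0282). For each of the 5 genes both EGF libraries lay above both DMSO libraries, which was true of 20.5% of all genes tested. The reverse arrangement was found for 16% of genes. EGR1 passed under all 21 alternatives run, EGR3 and FOS under 19 of 21, FOSB under 13 of 21 and EGR2 under 10 of 20. The calls of EGR2 and FOSB ended when the replicate number was added as a block (limma adjusted p 0.0575 for each). They also ended without WT DMSO+EGF replicate 2 (0.369 and 0.252) and without WT DMSO+EGF replicate 3 (0.254 for each), and EGR2 was lost without WT DMSO replicate 3 (0.149).

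Promoter sequences are shown for genes of this set because SRF binding sites, known as CArG boxes, lie at many immediate early genes. The 250 bases before the start of each RefSeq gene (GRCh38.p14) were searched for 5 motifs: the CArG box, the cAMP response element TGACGTCA, the AP-1 site TGACTCA and the ETS site CCGGAAGT on both strands, and the TATA box TATAAA on the sense strand. A promoter was found for 4 of the 5 genes that rose. EGR1 held 2 CArG boxes, 105 and 83 bases before its start, and a CArG box occurred in 1.14% of the 27305 promoters. FOS and FOSB each held a TATA box, found in 7.17% of promoters, and no CArG box in this window. DUSP1, described below, held a cAMP response element (1.77% of promoters) and a TATA box. The stretches below run 5′ to 3′ along the sense strand, with these matches in capitals.
EGR1, chr5:138465354-138465425, plus strand: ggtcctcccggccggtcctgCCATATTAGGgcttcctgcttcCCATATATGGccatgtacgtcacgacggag
FOS, chr14:75278775-75278820, plus strand: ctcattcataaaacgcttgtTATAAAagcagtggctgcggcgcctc
FOSB, chr19:45467946-45467991, plus strand: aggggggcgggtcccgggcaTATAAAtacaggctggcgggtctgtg
DUSP1, chr5:172771200-172771340, minus strand: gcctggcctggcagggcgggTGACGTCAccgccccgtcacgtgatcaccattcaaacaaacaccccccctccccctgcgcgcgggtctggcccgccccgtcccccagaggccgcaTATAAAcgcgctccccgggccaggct

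The matches are a description of these letters, and binding was not measured. Of 20 tested immediate early transcription factor genes with a promoter, 2 held a CArG box (10%), 2 a cAMP response element (10%) and 3 a TATA box (15%). Over the 11518 promoters of tested genes the shares were 0.955%, 3% and 3.79%, and of 9 reference gene promoters 3 held a TATA box (33.3%). Of the 2 immediate early factors with a CArG box, only EGR1 reached an unadjusted p of at most 0.05. None of the 11 promoters found for the 12 protein-coding genes named below outside the lists held any of the 5 motifs.

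**Figure D1:**
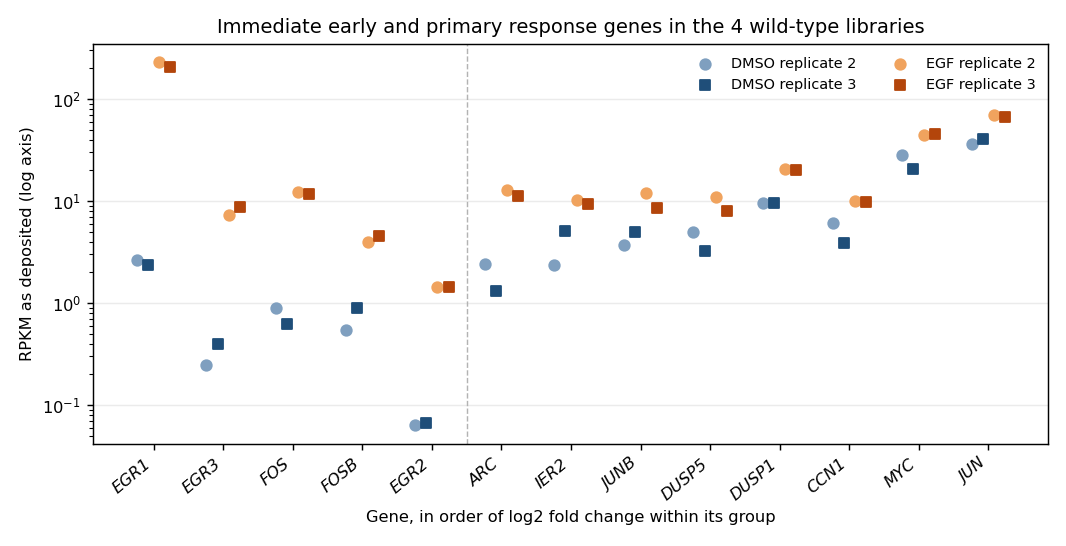
Level of 13 immediate early and primary response genes in each of the 4 wild-type libraries, in RPKM as deposited, on a log axis. The 5 genes left of the dashed line passed an adjusted p of 0.05, and in all 13 genes both EGF libraries (orange) lie above both DMSO libraries (blue).

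The other immediate early transcription factors were mostly higher with EGF, by smaller amounts, and none of the others passed adjustment. Of 29 genes in this list, 26 were tested, and EGR4, KLF2 and NPAS4 fell under the filter. The median log2 fold change of the 26 was 0.47, against 0.02 over all genes tested. Of the 26, 24 were higher with EGF and 2 were lower (KLF6, -0.07, and KLF10, -0.38, named because they are the exceptions). Over all 22067 genes tested, 11539 were higher and 10528 lower. At an unadjusted p of at most 0.05, 14 of the 26 were higher and 0 lower. That threshold was passed by 6.18% of all genes tested in the upward direction and by 3.53% in the downward direction. IER2, a nuclear protein of the primary response, had 2.38 and 5.08 RPKM without EGF and 10.3 and 9.4 RPKM with it. Its DMSO replicates differed by more than a factor of 2, but the groups did not overlap. The log2 fold change was 1.34 (SE 0.301, limma adjusted p 0.428). JUNB, a JUN family partner of FOS, had 3.72 and 5.02 RPKM without EGF and 12 and 8.64 RPKM with it, a log2 fold change of 1.12 (SE 0.203, limma adjusted p 0.379). JUN was already well expressed in starved cells, at 36.1 and 40.7 RPKM, and had 69.6 and 67.4 RPKM with EGF (log2 fold change 0.80, SE 0.14). MYC, a growth regulator, had 28.1 and 20.5 RPKM without EGF and 44.9 and 45.8 RPKM with it (log2 fold change 0.87, SE 0.284). The nuclear receptor gene NR4A1 (0.61), the small MAF gene MAFF (0.60), CSRNP1 (0.62), ATF3 (0.48) and IER5 (0.38) completed the 14, with log2 fold changes as given.

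Among 31 primary response effectors, which are mostly secreted, membrane or signalling proteins, 24 were tested. Of these, 22 were higher with EGF, the median log2 fold change was 0.25, and 8 reached an unadjusted p of at most 0.05, all upward. ARC, known for its role at synapses, had 2.41 and 1.33 RPKM without EGF and 12.9 and 11.3 RPKM with it. This was the largest difference among list members outside the 5 genes that rose, and it missed the threshold (log2 fold change 2.42, SE 0.293, limma adjusted p 0.0654). CCN1, a secreted matrix protein, had 6.04 and 3.9 RPKM without EGF and 9.94 and 9.88 RPKM with it (log2 fold change 0.93, SE 0.198). TRIB1, a pseudokinase, had a log2 fold change of 0.80, and BTG2, an antiproliferative protein, 0.56. IER3 (0.51), GADD45B (0.51), CCN2 (0.37) and RHOB (0.33) were the other 4 genes at this threshold. The secreted growth factor HBEGF had 3.75 ± 0.805 RPKM without EGF and 4.61 ± 1.1 RPKM with it (SD, n = 2), a difference within the spread of the replicates.

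Genes that switch ERK signalling off were also mostly higher after 30 min. Of 21 such genes 20 were tested, 17 were higher with EGF, and the median log2 fold change was 0.24. At an unadjusted p of at most 0.05 there were 6, all upward. For comparison, 11539 of the 22067 genes tested were higher, and 6.18% reached this threshold upward. DUSP1 (ENSG00000120129, chromosome 5, 172768096 to 172771195, minus strand), a nuclear phosphatase of MAP kinases, differed little between replicates. It had 9.63 RPKM in both WT DMSO libraries and 20.7 and 20.3 RPKM with EGF (log2 fold change 1.02, SE 0.13, limma adjusted p 0.0825). DUSP5, a nuclear phosphatase of ERK, had 4.96 and 3.23 RPKM without EGF and 10.9 and 8.01 RPKM with it (log2 fold change 1.10, SE 0.219). The Sprouty genes SPRY4 (0.60) and SPRY2 (0.56), which restrain RAS signalling, and NAB2 (0.50), a co-repressor of EGR proteins, followed with smaller log2 fold changes. DUSP7, another ERK phosphatase, had 0.37. DUSP6, the cytoplasmic ERK phosphatase, had 2.62 ± 0.125 RPKM without EGF and 3.37 ± 0.358 RPKM with it (SD, n = 2) and did not reach the unadjusted threshold.

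In the other lists few members reached the unadjusted threshold, in most of them a share near the background of 6.18% upward and 3.53% downward over all genes, so these counts say nothing particular about the lists. ZFP36, which speeds the decay of mRNAs with AU-rich elements, had 1.69 and 2.89 RPKM without EGF and 5.07 and 3.38 RPKM with it (log2 fold change 0.74, SE 0.261). It was the 1 member of 9 mRNA decay and NF-κB feedback genes at an unadjusted p of at most 0.05. Of 12 BMP, SMAD and Notch target genes, ID3 (log2 fold change 0.64) and HES4 (0.82) reached it. Of 12 tested genes of the EGF receptor family, its ligands and adaptors, ERBB2 (0.39) was the 1 that did, and the median was 0.05. The 18 genes of the RAS-ERK cascade itself had a median of 0.03, with MAP2K2, which encodes MEK2, higher (0.47) and ELK4, a ternary complex factor, lower (-0.40). The 13 tested cytoskeletal targets of SRF and its MRTF cofactors had a median of 0.10, and the focal adhesion gene ZYX (0.44) was the 1 at the unadjusted threshold. The 8 tested YAP targets had a median of 0.17, and the 2 at the threshold were CCN1 and CCN2.

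Growth factor signalling through AKT keeps FOXO transcription factors out of the nucleus, so their targets were listed as candidates for a fall. Of 20 FOXO targets 12 were lower with EGF and 8 higher, with a median log2 fold change of -0.06. Among all 22067 genes tested, 10528 were lower and 11539 higher. KLHL24 (4.95 and 6.89 RPKM without EGF, 3.89 and 4.54 RPKM with it) had -0.46, and ARRDC3 (4.93 and 5.43 RPKM, then 3.93 and 3.77 RPKM), an arrestin-like protein, had -0.41. IRS2, an adaptor of the insulin receptor, had 0.45, and TXNRD2, a mitochondrial thioredoxin reductase, had 0.72. None of these 4 passed adjustment. The cell cycle inhibitor CDKN1A had 11 and 10.8 RPKM without EGF and 15.3 and 17.8 RPKM with it (log2 fold change 0.55, SE 0.123), and it was the 1 of 10 p53 and growth arrest genes at the unadjusted threshold. In the apoptosis list of 12 genes the BH3-only genes BBC3 (0.54) and BAD (0.40) reached it. SREBF1 (0.45), the lipid regulator, did so among 12 tested cholesterol genes, and CCNT1 (-0.37), a subunit of the elongation kinase P-TEFb, among 10 transcription pausing genes. KRT8 (0.38) did so in the HEK293 list and COL1A1 (0.55) among the other cell type markers. For 0 genes of the circadian (12 tested), heat shock (11), stress response (11) and reference (12) lists was the unadjusted p at most 0.05. Medians were -0.04, -0.23, 0.18 and 0.14. The reference genes therefore had a median as high as that of several lists above.

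**Figure D2:**
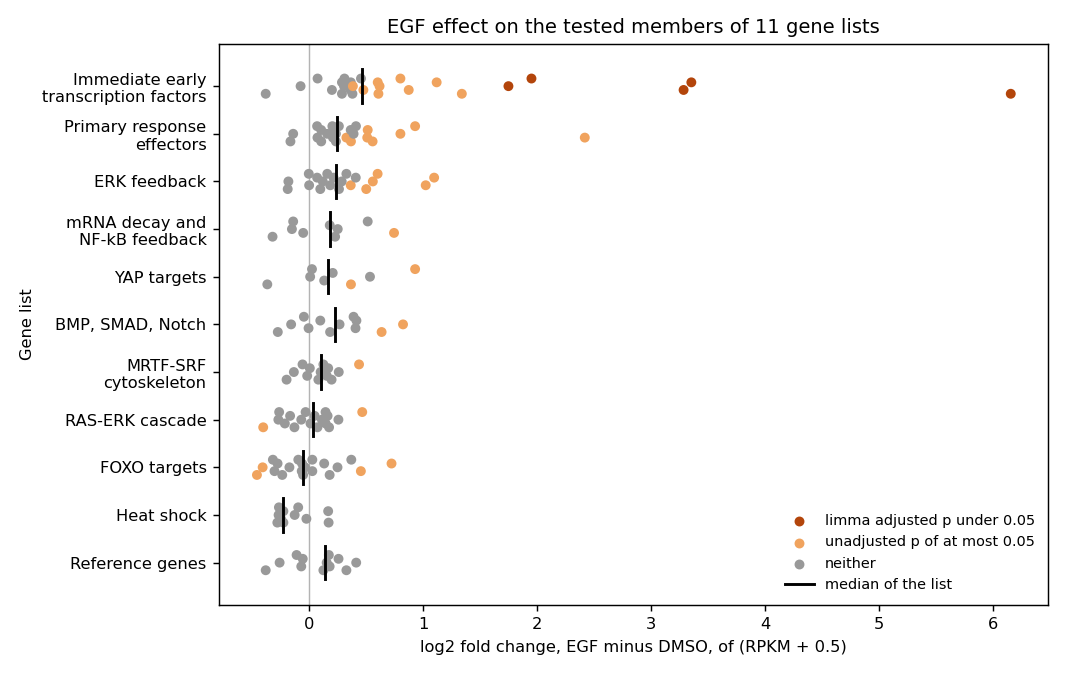
Log2 fold change, EGF minus DMSO, of each tested member of 11 gene lists (points) with the median of each list (black bars). The 5 genes past an adjusted p of 0.05 are all immediate early transcription factors, whose median is 0.47, while the reference genes have a median of 0.14.

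Across all genes tested, the count of differing genes depended on the threshold. The study counted genes whose p before adjustment was 0.05 or less and whose log2 fold change was 1 or more in size. At this study threshold 216 genes were higher (0.979% of those tested) and 123 were lower (0.557%). The 216 include 7 immediate early transcription factors, 1 primary response effector and 2 ERK feedback genes described above. Few were protein coding: 41 of the 216 (19%) and 3 of the 123 (2.44%), against 58.1% of all genes tested. They also had few reads. The median gene of the 216 had a mean of 13.6 reads over the 4 libraries, and that of the 123 had 10.5, against 159 over all genes tested. Of the 216, 94 (43.5%) had no read in the shallow WT DMSO replicate 3, against 2.7% of all genes tested. With at least 20 reads required in each library of the higher group, 103 higher and 11 lower genes were left. For lower genes the higher group is DMSO, which holds the shallow library, so this rule is stricter for falls than for rises.

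By class of gene, 71 of 4573 lncRNAs were higher (1.55%) and 28 lower, and 40 of 3471 pseudogenes were higher (1.15%) and 56 lower. Among classes with more than 2 tested genes, small RNA genes had the highest shares in the upward direction. Of 101 tested miRNA genes 13 were higher and 0 lower, and 7 of the 13 had no read in WT DMSO replicate 3. Of 526 snRNA and miscellaneous RNA genes 34 were higher and 27 lower, and of 145 snoRNA and scaRNA genes 12 were higher and 3 lower. Total RNA libraries of this kind do not capture short RNAs in full, and many small RNA genes have near-identical copies between which reads can be split, so these counts are uncertain.

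**Figure D3:**
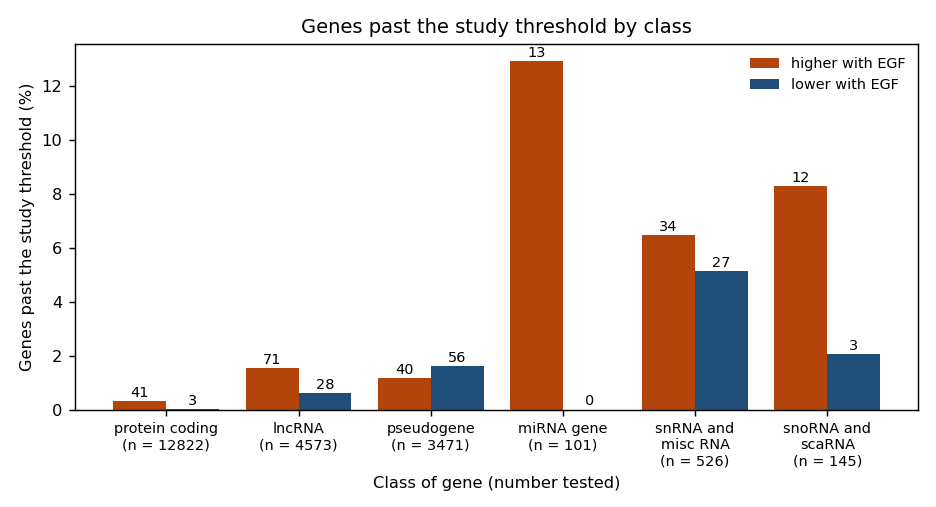
Share of tested genes of each class past the study threshold (p of 0.05 or less before adjustment, log2 fold change of 1 or more in size), higher (red) and lower (blue) with EGF, with the number of genes above each bar. The share is 0.32% upward for protein-coding genes and 12.9% upward for miRNA genes.

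Named by size among genes outside the lists (mean of at least 1 RPKM, no overlap between groups and at least 20 reads in each library of the higher group), 29 protein-coding genes were higher with EGF and the 12 with the largest differences are given here. The first was CTXN1 (ENSG00000178531, chromosome 19, 7924491 to 7926135, minus strand), which encodes the small membrane protein cortexin 1. It had 4.04 and 4.62 RPKM without EGF and 14.8 and 12 RPKM with it (log2 fold change 1.49, SE 0.223, limma adjusted p 0.146). TMEM160, a transmembrane protein gene, had 2.78 and 1.9 RPKM without EGF and 7.41 and 7.24 RPKM with it (1.45, SE 0.279). CCDC85B had 6.1 and 6.19 RPKM without EGF and 11.9 and 19.5 RPKM with it (1.22, SE 0.343), and RNF225, a RING finger gene, had 0.742 and 0.698 RPKM and then 2.41 and 2.31 RPKM (1.21, SE 0.239). The DMSO replicates lay close together for CTXN1, CCDC85B and RNF225. The shallow library held 23 reads of CTXN1, 5 of TMEM160, 24 of CCDC85B and 4 of RNF225.

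In the other 8 the shallow library was the lowest of the 4. ZNF32, a zinc finger gene, had 1 read there, MTLN (mitoregulin, a mitochondrial microprotein) and C1orf53 had 0, NOXA1 and C6orf226 had 2, and LGALS2, a galectin, had 1. IFRD2 had 10.2 RPKM in WT DMSO replicate 2 and 4.32 RPKM in replicate 3, against 15.4 and 18.9 RPKM with EGF. FASTK, a mitochondrial RNA-binding protein gene, had 10.97 and 3.75 RPKM, against 16.6 and 16.4 RPKM with EGF. WDR90, a large gene of 41 exons that encodes a centriole protein, was named because it passed with voom on the recovered reads. That alternative called 8 genes (0.0363% of those tested), namely the 5 above with ARC, IER2 and WDR90. WDR90 had 6.69 and 6.32 RPKM without EGF and 11.5 RPKM in both EGF libraries (log2 fold change 0.75, SE 0.103, limma adjusted p 0.134, and 0.0421 with voom).

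GC content, which the rule did not use, was high in part of these 12 genes. Over the longest transcript it was 72.8% in CTXN1, 72.2% in TMEM160, 71.7% in CCDC85B and 71.6% in RNF225, against a median of 48% over tested protein-coding genes. ZNF32 (49.4%), MTLN (50.8%), C1orf53 (52.2%) and LGALS2 (53.4%), which had 0 or 1 read in WT DMSO replicate 3, were closer to that median. Over the whole table the nominal differences went with GC content. The 925 protein-coding genes that were higher at an unadjusted p of at most 0.05 had a median GC content of 60.9%, and the 383 that were lower had 39.2%. The higher ones also had short genes, with a median span of 14298 bases against 48910 bases for the lower ones. In the lowest of 10 classes by GC content 15 genes were higher and 154 lower, out of 1462. In the highest class 424 were higher and 3 lower, out of 1461. The median log2 fold change went from -0.14 in the lowest class to 0.31 in the highest.

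The trend with GC content was strongest in 1 control library. In WT DMSO replicate 2 the median log2 deviation from the mean of the 6 groups went from 0.18 in the lowest GC class to -0.42 in the highest. In WT DMSO replicate 3 it went from 0.06 to -0.09, in WT DMSO+EGF replicate 2 from -0.03 to 0.07, and in WT DMSO+EGF replicate 3 from 0 to 0.01. The difference between EGF and DMSO correlated with GC content at 0.453 across the 22044 genes with a known GC content for replicate 2, and at 0.077 for replicate 3. Genes are not independent replicates, and the points of each correlation share 2 libraries. The trend of each library was then subtracted, an alternative chosen after seeing the data. After this step 1231 of the 22044 genes with a known GC content reached an unadjusted p of at most 0.05. Before it, 2144 of the 22067 genes tested did. The 5 genes that rose still passed. Of the 41 protein-coding genes higher at the study's threshold 16 still passed it. CTXN1 had 1.04, TMEM160 1.01, CCDC85B 0.79, RNF225 0.78 and WDR90 0.45 on the log2 scale after this step. The 46 named list members had been chosen at or past an unadjusted p of 0.05 before this step, so a share that keeps it is not a separate test. Of the 46 named list members 24 still had an unadjusted p of at most 0.05. These were 12 of the 14 immediate early factors (all but CSRNP1 and MAFF), 5 of the 8 effectors (ARC, CCN1, TRIB1, BTG2 and CCN2), 4 of the 6 ERK feedback genes (DUSP1, DUSP5, SPRY4 and SPRY2), and ZFP36, ID3 and CDKN1A. In the FOXO, apoptosis, cholesterol, RAS-ERK, EGF receptor, MRTF-SRF and transcription pausing lists 0 members were left. HES4 went from 0.82 to 0.35, BBC3 from 0.54 to 0.15, SREBF1 from 0.45 to 0.19 and BAD from 0.40 to 0.07 on the log2 scale. The reference genes had a median of 0.03. The part of GC content in these differences beyond this was not tested.

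**Figure D4:**
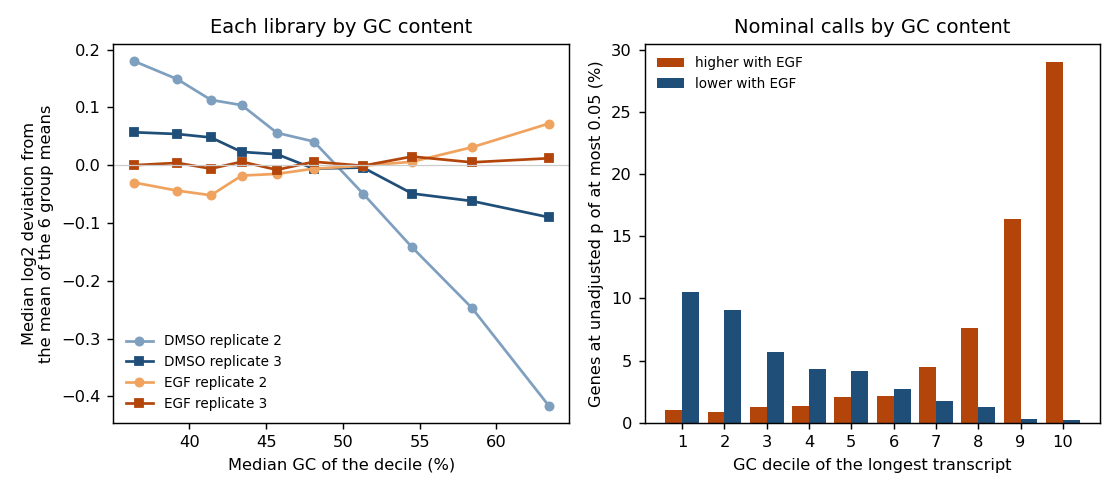
Left, median log2 deviation of each of the 4 wild-type libraries from the mean of the 6 group means, by class of GC content (10 classes of genes with a mean of at least 2 RPKM). Right, share of the genes of each class at an unadjusted p of at most 0.05, higher (red) and lower (blue) with EGF. WT DMSO replicate 2 falls from 0.18 to -0.42, and the higher genes gather in the classes with the most GC.

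The number of falls depended on the processing. No gene fell at an adjusted p under 0.05, with limma, voom or the GC step on all 12 libraries. The adjusted test called 3 lower genes with reads thinned to the shallowest depth, 172 without WT DMSO replicate 2 and 1 without WT DMSO+EGF replicate 3. In all, 780 genes were lower at an unadjusted p of at most 0.05, and 1364 were higher. At the study's threshold 123 genes were lower and 216 higher, while thinned reads gave 417 lower and 374 higher. Without thinning, only 3 protein-coding genes passed the study's threshold downward. The rule for naming required 20 reads in the shallow library for a fall but not for a rise, so it was stricter for falls. SCG3 (secretogranin III, a protein of secretory granules, chromosome 15, 51681492 to 51721026, plus strand) was the 1 that met the rule for naming. It had 1.69 and 5.09 RPKM without EGF and 1.21 and 1.3 RPKM with it (log2 fold change -1.01, SE 0.408, limma adjusted p 0.503). Its difference was -0.37 for replicate 2 and -1.66 for replicate 3, so most of it came from WT DMSO replicate 3.

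Among the other classes 59 genes met the rule upward and 10 downward, and 6 of each were named. Because the rule was stricter for falls, the counts of 59 and 10 cannot be set against each other. Lower were both mitochondrial ribosomal RNAs. MT-RNR1 had 76.8 and 55.2 RPKM without EGF and 12.2 and 43.8 RPKM with it (log2 fold change -1.50, SE 0.599), and MT-RNR2 had 35.8 and 35.9 RPKM and then 7.46 and 22.7 RPKM (-1.45, SE 0.481). WT DMSO+EGF replicate 2 was the lowest library for both. Mitochondrial rRNA made up 0.00236% of its reads and 0.00762% to 0.0133% in the other 3 libraries. The libraries were depleted of ribosomal RNA, and the part of that step in these values was not tested. ENSG00000281383, a lncRNA on chromosome 21, had 16.5 and 13.5 RPKM without EGF and 0.897 and 10.7 RPKM with it, again with WT DMSO+EGF replicate 2 the lowest. RNU6-1, a U6 spliceosomal RNA gene with many copies, had 31.3 and 83.6 RPKM and then 16.95 and 9.09 RPKM. The processed pseudogenes PTMAP12 (log2 fold change -1.24) and ENSG00000249019 (-1.26) had 48 and 32 reads in WT DMSO+EGF replicate 3.

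Higher were RNU2-1, a U2 spliceosomal RNA gene, with 2.46 and 3.9 RPKM without EGF and 35.5 and 25.1 RPKM with it (log2 fold change 3.05, SE 0.995), and SNORD101, a snoRNA gene with 20 and 0 reads without EGF and 51 and 42 with it (3.42, SE 1.22). MIR3648-1 (chromosome 21, 8208473 to 8208652) had 1181 and 3171 RPKM without EGF and 9952 and 5192 RPKM with it (1.86, SE 0.621). It has a GC content of 83.9%, and its log2 fold change was 1.18 with the GC trend subtracted. The pseudogene RPL29P15 (1.86) and ENSG00000256843 (2.41) and the lncRNA ENSG00000290039 (2.19) were the other 3 named. Limma adjusted p was 0.417 to 0.5 for these 12 genes.

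Agreement of the replicates was close for the genes that rose and weak across the table. A small spread between replicates favours a small adjusted p, so the close agreement follows in part from how these genes were chosen. Over all 22067 genes the difference between EGF and DMSO for replicate 2 correlated with that for replicate 3 at 0.087, and with the replicate numbers crossed at -0.035. For the 5120 genes with a mean over 10 RPKM the values were 0.157 and 0.088. The SD of the differences across genes was 0.431 for replicate 2 and 0.645 for replicate 3, which contains the shallow library. In replicate 2 there were 376 genes with a log2 difference of 1 or more, and in replicate 3 there were 1275, with 89 in both, which is 23.7% of the former and 6.98% of the latter. For differences of -1 or less the numbers were 258 and 872, with 44 in both (17.1% and 5.05%). Opposite directions at this size were found for 62 genes.

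Each EGF library can be set against each DMSO library. A mean of at least 2 RPKM and at least 20 reads in each library of the higher group were required. Under this rule 16 genes had a log2 difference of at least 1 in all 4 pairs, and 0 genes had -1 or less in all 4. A fall needed 20 reads in the shallow library and a rise did not, so these counts cannot be set against each other. Of the 16, 7 were protein coding: EGR1, EGR3, FOS, ARC, FOSB, CTXN1 and TMEM160. The smallest of the 4 differences was 3.11 for EGR3, 3.09 for FOS, 1.98 for ARC and 1.67 for FOSB, and 1.25 for CTXN1 and 1.20 for TMEM160. EGR2 was under the minimum level. The other 9 were small RNA genes, pseudogenes and lncRNAs, all with at most 6 reads in the shallow library, where TMEM160 had 5 reads and CTXN1 23. Among them ENSG00000225761, a lncRNA of 2 exons on chromosome 10 (74005137 to 74027915, plus strand), was singled out after its values were seen. It had 2.13 and 1.69 RPKM without EGF and 7.94 and 6.19 RPKM with it. Its log2 fold change was 1.62 (SE 0.224, limma adjusted p 0.138), and with the GC trend subtracted it was 1.79 (limma adjusted p 0.031). With the replicate block added to the GC step the call ended (limma adjusted p 0.133).

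**Figure D5:**
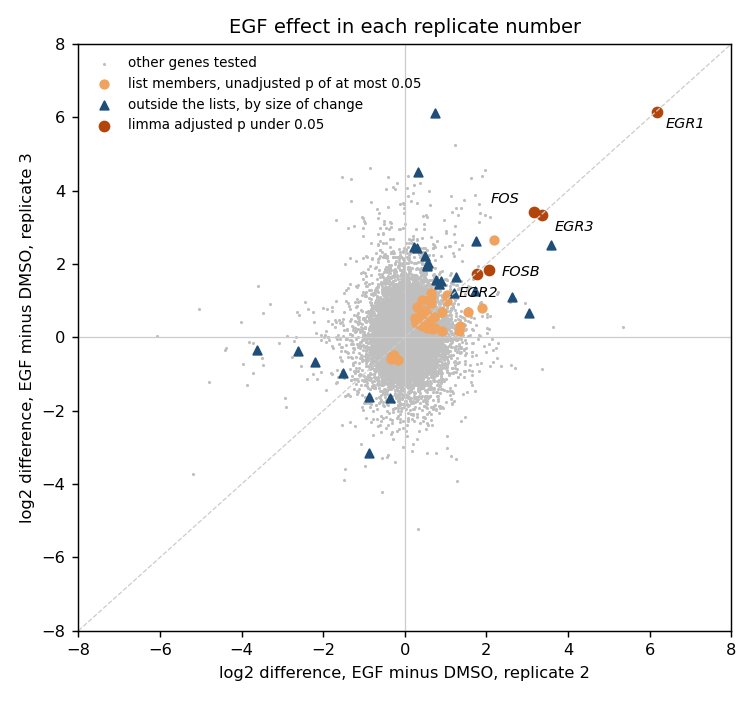
Log2 difference, EGF minus DMSO, of each of the 22067 genes tested in replicate 2 (horizontal) and in replicate 3 (vertical). EGR1, EGR3, FOS, FOSB and EGR2 lie on the diagonal (dashed), while the cloud of other genes has a correlation of 0.087 over all genes and is wider along the replicate 3 axis.

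The same EGF treatment was given to AMPK knockout cells, in 4 other libraries, so that the members could be seen in separate control samples. EGR1 had a log2 fold change of 5.28 there, FOS 2.50, EGR3 2.26, FOSB 1.29, EGR2 1.21, ARC 0.85 and DUSP1 0.33. Of the 42 named list members that were higher in WT cells 29 were higher in AMPK KO cells. Of the 29 protein-coding genes outside the lists that met the rule, 9 were higher there, among them ZNF32 (0.07) but not CTXN1 (-0.25) or TMEM160 (-0.70). At the study's threshold 100 of the 216 higher genes were higher there, and 60 of the 123 lower genes were lower. Protein-coding genes at an unadjusted p of at most 0.05 in WT cells kept direction less often. These were 208 of the 925 higher and 49 of the 383 lower genes. Over all genes tested 51.4% were higher in AMPK KO cells. The median log2 fold change in AMPK KO cells went from 0.106 in the lowest GC class to -0.155 in the highest, opposite to WT cells. Tested as an interaction in limma, the difference of the EGF effect between the lines passed an adjusted p of 0.05 for 0 genes. It reached an unadjusted p of at most 0.05 for 1917 genes (8.69% of those tested), and with WT DMSO replicate 2 left out the adjusted test called 13.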

How the data were processed

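HEK293 RNA from 12 libraries in 6 groups of 2 was sequenced by the authors as paired reads of 150 bases, mapped to GRCh38.p13 and counted per gene with Rsubread. They deposited RPKM values, and the submitters' processing notes also name FastQC. The rule by which genes were kept is not given in the sources used here. The deposited RPKM values were whole multiples of 1 read for 25082 of 26058 genes (96.25%) at annotated lengths, within 0.05 of a read, so reads were recovered. Another 2 rows named no gene. Gene IDs were matched to GENCODE release 44 for 26029 genes.

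As in the study, upper-quartile scaling was applied to each library. The scaled values were analysed as log2(scaled RPKM + 0.5). The 22067 genes with a mean of at least 0.5 RPKM were tested with limma 3.58.1 in R 4.3.3 (eBayes with trend). The test was two-sided, with all 12 libraries and group means in 1 fit (6 residual degrees of freedom). Benjamini-Hochberg adjustment ran over all genes within each comparison. SE is the moderated standard error. Fold changes understate changes of low genes, and intervals from read counts would be too narrow, since reads carry no molecular identifiers.

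Genes named were those past adjustment, list members at an unadjusted p of at most 0.05 or past the study's threshold, up to 12 higher and 10 lower protein-coding genes and 6 others each way outside the lists by size, and genes called by voom. The members and lists were chosen with earlier results of these data known. Alternatives were other pseudocounts, filters, scalings, samples, blocks, weights, thinned reads and single libraries left out. Subtraction of a lowess trend (span 0.3) on GC content, this with a block, and a minimum of 20 reads were chosen after seeing the data. The script was tested on simulated data. AREG was not analysed here.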

Additional observations from a re-analysis of the deposited data

Results flagged for a closer look

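For 7 named genes both EGF libraries lay on one side of both DMSO libraries in WT cells and on the opposite side in AMPK KO cells. The named genes were chosen by their WT differences, so only the AMPK KO side was free to vary. In WT cells alone 20.5% of all genes tested had no overlap upward and 16% downward. The share of all genes with opposite sides in the lines was not counted. The difference, WT effect minus AMPK KO effect on the log2 scale, was 2.15 for TMEM160, 1.67 for CCDC85B, 1.16 for HES4, 0.85 for WDR90, 0.60 for SREBF1, 0.48 for ERBB2 and -2.10 for MT-RNR1. Tested as an interaction in limma, the adjusted p was 0.569 to 0.584, so none passed. TMEM160 had a mean of 2.34 RPKM without and 7.32 RPKM with EGF in WT cells, and 8.02 and 4.7 RPKM in AMPK KO cells. HES4 had 60.9 and 104 RPKM in WT cells and 108 and 83.7 RPKM in AMPK KO cells. For both genes WT DMSO was the lowest group of the 4. GC content was 72.2% in TMEM160, 71.7% in CCDC85B, 73.9% in HES4, 65% in WDR90, 63.2% in SREBF1, 57.5% in ERBB2 and 45.5% in MT-RNR1. The EGF effect followed GC content in opposite directions in WT and AMPK KO cells. Whether the GC trend of WT DMSO replicate 2 or that in AMPK KO cells has a part in these differences was not tested.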

How the results depend on the processing

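Counts moved between the alternatives. Thinned reads are those of the 4 compared libraries alone, with the rest at full depth in the shared estimate of the spread. Against 5 genes higher at an adjusted p under 0.05, the count was 1 with only the 4 compared libraries, 3 with only the 6 WT libraries, 8 with voom, 3 with array weights and 18 with thinned reads, which also gave 3 lower genes. At the study's threshold, against 216 higher and 123 lower genes, 371 and 189 were found with a pseudocount of 0.1, 115 and 69 with 1 in its place, thinned reads gave 374 and 417, and array weights gave 62 lower. The minimum of 20 reads left 103 and 11, and for falls it applied to the shallow library. With 1 library left out, the adjusted test called 3 to 530 higher and 0 to 172 lower genes, the study's threshold 179 to 1183 and 66 to 454, and the difference between the lines 0 to 13. The high ends all came without WT DMSO replicate 2, so that the shallow library stood alone for its group and was assumed to vary like the other groups. Then 19 more of the 72 named genes passed adjustment, among them ARC, DUSP1, DUSP5 and CCN1. The low end of 66 came without WT DMSO+EGF replicate 3. No named gene changed direction under any alternative run. The named genes were chosen by their differences in these same libraries, so a change of direction was unlikely from the start. The cause of these moves was not tested.

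The labels do not say what a replicate number stands for. The difference between replicates 3 and 2 in WT DMSO correlated with that in WT DMSO+EGF at 0.136 across genes. A replicate block within each cell line gave 3 higher genes at an adjusted p under 0.05, as did that block with GC-adjusted values, and a block with only the 4 compared libraries gave 1. The block changed the call of 2 named genes, EGR2 and FOSB, with and without the GC step. With the GC step it also ended that of the lncRNA ENSG00000225761 (limma adjusted p 0.133). Detection against depth was not measured.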
